A study of Mus musculus with 9 samples.

Results

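Myeloid cells restrain T cells through a small set of enzymes, ligands and cytokines, and the transcripts of 9 of these effectors were followed here in RNA sequencing of mouse myeloid cells. The genes were taken by symbol, whatever their values, as Arg1, Arg2, Nos2, Nt5e, Entpd1, Cd274, Ptgs2, Ptges and Tgfb1, and all 9 were found among the 54532 genes of the table. The study holds 9 libraries in 3 groups of 3, all of white cells labelled as myeloid from C57BL/6 mice aged 6 to 8 weeks. The groups are KO (genotype label SOCS3 KO), Gr_1 (genotype label wild type) and fl (genotype label wild type). The labels do not spell out what Gr_1 and fl stand for, name no treatment and no promoter or cell type that drives a deletion, and do not say whether animals were pooled. They also do not say whether the A, B and C libraries of a group came from separate mice, so the p-values speak to the scatter of these libraries alone, and that scatter may be technical.

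Arginases and inducible nitric oxide synthase both use up arginine, which T cells need to proliferate, and nitric oxide itself blocks T cell signalling. CD39 and CD73, the products of Entpd1 and Nt5e, act one after the other to turn extracellular ATP into adenosine, while cyclooxygenase 2 and a prostaglandin E synthase, the products of Ptgs2 and Ptges, make prostaglandin E2, and both products raise cyclic AMP in T cells. PD-L1, the product of Cd274, engages PD-1 on T cells, and transforming growth factor beta 1 is secreted in a latent form and restrains T cells once it is activated. These effectors are known from myeloid-derived suppressor cells, a name for immature neutrophils and monocytes that accumulate in tumours and chronic inflammation.

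Depth was alike across libraries, at 18.3 to 21.5 M recovered fragments each. All 10 myeloid markers checked were detected, with Itgam at 55.1 to 79.4 FPKM in the KO-labelled libraries, 135 to 137 in Gr_1 and 57.4 to 58.4 in fl. FPKM stands for fragments scaled to exon length and to library, here by factors that matched size factors by median of ratios and not total fragments. The scaling to exon length lets levels be compared between genes. Lyz2, the lysozyme M gene of neutrophils and macrophages, was far lower in the KO-labelled libraries, at 53.2 to 59.8 FPKM there, against 10486 to 10808 in Gr_1 and 8670 to 9998 in fl. Socs3 itself had 9.23, 6.76 and 8.37 FPKM in the KO-labelled libraries, against 37.0, 36.6 and 33.0 in Gr_1 and 3.87, 4.02 and 3.405 in fl. It was thus lower in the KO-labelled libraries than in Gr_1 but higher than in fl. The labels do not say which part of the gene was targeted, so Socs3 levels do not bear out the genotype label and cannot check it. Every direction below rests on that label. All Gr_1 and fl libraries carried Y-linked transcripts, with sums over 4 genes of 16.6 to 39.3 FPKM, and Xist only up to 0.0104. KO A likewise carried Y-linked transcripts and almost no Xist, KO B the reverse, and KO C both, with Xist at 26.3 FPKM between 0.0028 in KO A and 58.5 in KO B. KO C also lay between KO A and KO B in 61.5% of the 12289 genes tested, where C lay between A and B in 24.1% of genes in Gr_1 and 15.6% in fl. KO B was the only library without Y-linked transcripts, and the part of sex in the comparisons with KO was not tested. Whether KO C is an independent library was not tested, and calls of the 9 genes that are lost without it are given with and without it.

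Among the KO-labelled libraries, Tgfb1 was the most abundant of the 9 genes, at 52.1 ± 2.80 FPKM (SD, n = 3), and Ptgs2, Entpd1, Arg2 and Cd274 followed with ranges that overlapped from each to the next. In Gr_1 the order differed, with Ptgs2 first at 51.8 ± 3.73 FPKM and Tgfb1 and Arg2 next with overlapping ranges, at 42.1 ± 0.630 and 41.5 ± 4.08. Then came Entpd1, Nt5e, Ptges and Cd274, each apart from its neighbours. In fl Tgfb1 stood far above the others at 70.6 ± 11.9 FPKM, and Entpd1 and Ptgs2 followed with overlapping ranges at 7.36 ± 0.262 and 6.13 ± 1.67. Cd274 and Ptges came next, and Arg2 and Arg1 followed with overlapping ranges. Arg1 and Nos2 were among the lowest 3 genes in every group, and Nos2 was the lowest in all.

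**Figure D1:**
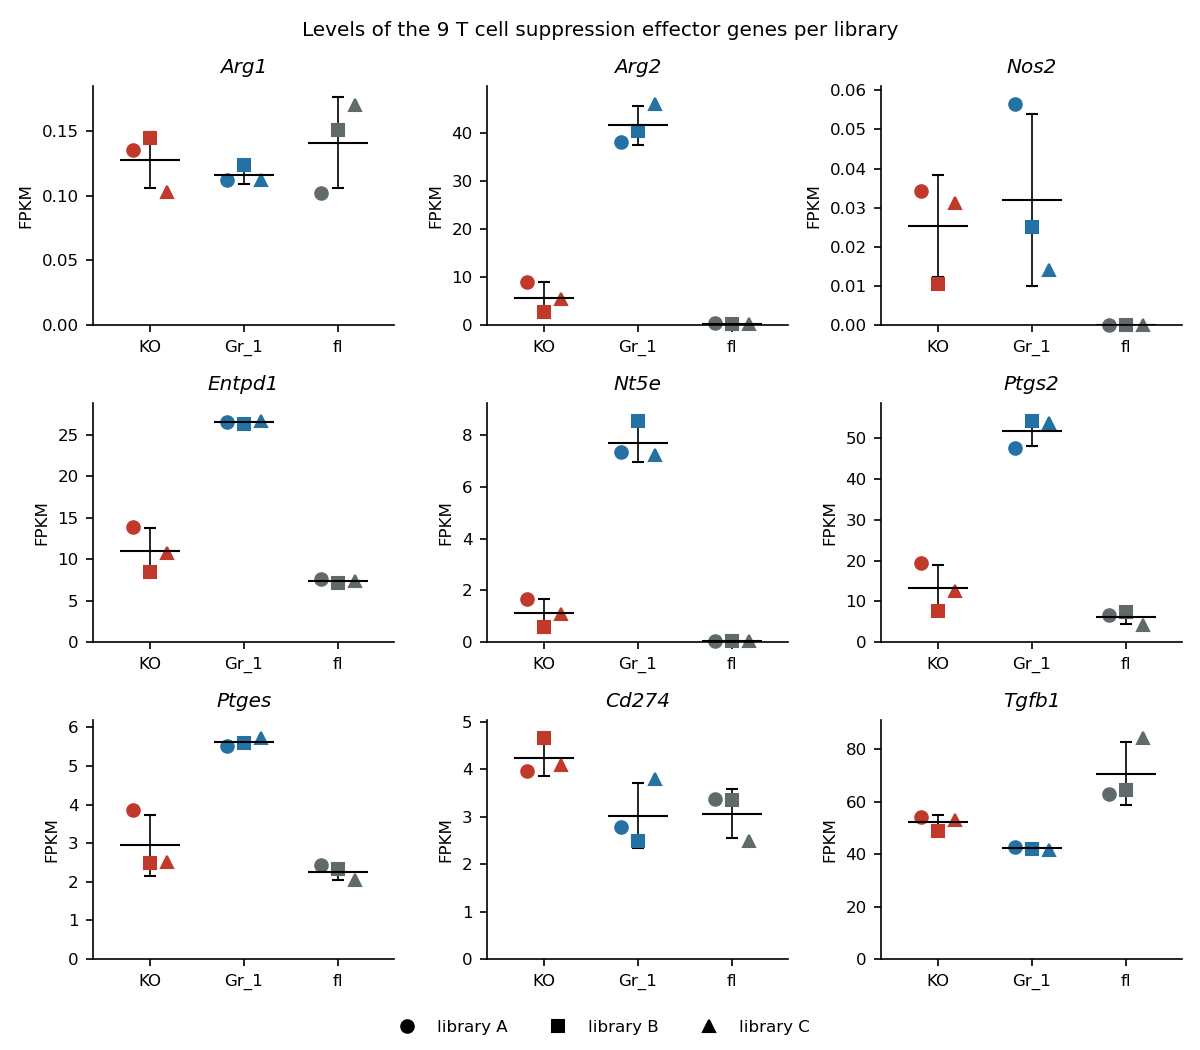
Level of each of the 9 genes in FPKM (vertical axes, each starting at 0) in the 3 libraries of KO, Gr_1 and fl (horizontal axis). Points are single libraries, with a circle, square or triangle for A, B or C, horizontal lines are means and bars are ± 1 SD over 3 libraries. Arg2, Nt5e, Entpd1, Ptgs2 and Ptges are highest in Gr_1, Tgfb1 is highest in fl, and Arg1 and Nos2 stay at or below 0.170 FPKM in every library.

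In the KO-labelled libraries compared with fl, Arg2, Nt5e and Entpd1 were higher and Tgfb1 was lower, while Cd274, Ptgs2 and Ptges did not pass the test. In Gr_1 compared with fl, Arg2, Nt5e, Entpd1, Ptgs2 and Ptges were higher, Tgfb1 was lower and Cd274 did not pass. Set against Gr_1, the KO-labelled libraries had lower Arg2, Nt5e, Entpd1, Ptgs2 and Ptges and higher Cd274 and Tgfb1. The 3 comparisons share libraries in pairs, so they are not independent of each other.

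A gene was tested when it reached 1 FPKM in at least 3 libraries, and it was called at an adjusted p under 0.05 (limma on log2(FPKM + 1), Benjamini-Hochberg adjustment over 12289 genes). Of the 9 genes, 7 passed this filter, and Arg1 and Nos2 did not. Arg2 and Nt5e stayed below 1 FPKM in every fl library and passed through the Gr_1 libraries and those labelled KO, so counts over the 7 describe these genes and support nothing further. In KO against fl, 3 of the 7 were called higher and 1 lower, where 4.48% of all genes tested were called higher, 6.52% lower and 11.0% in either direction. In Gr_1 against fl, 5 were called higher and 1 lower, beside 30.0%, 31.4% and 61.4% of all genes. In KO against Gr_1, 2 were called higher and 5 lower, beside 26.7%, 28.9% and 55.7% of all genes. The median log2 change of the 7 was 0.50, 1.72 and -1.22 in the 3 comparisons in that order, against -0.01, -0.03 and 0.01 over all genes tested. The libraries of the groups did not overlap in 7, 6 and 7 of the 7 genes, beside 31.4%, 67.5% and 68.2% of all genes.

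**Figure D2:**
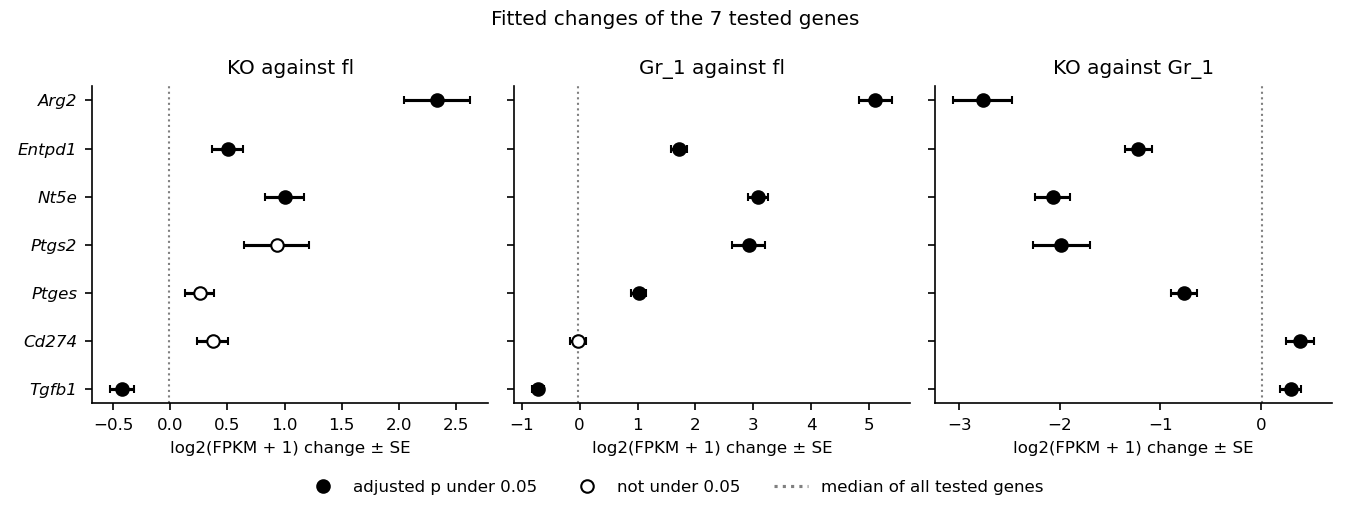
Fitted change in log2(FPKM + 1) with its standard error (horizontal axes, scaled separately in each panel) for the 7 tested genes in the 3 comparisons. Filled points passed an adjusted p under 0.05, open points did not, and the dotted line is the median of all genes tested. Arg2 changed by 2.33, 5.10 and -2.77 in the 3 panels on this scale, which compresses low levels, and Nt5e has the higher ratio of mean FPKM in both comparisons with fl.

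Of the 3 arginine-using enzymes, Arg2 was measured at levels that differed between all groups, while Arg1 and Nos2 rested on a few fragments per library. Arg2 encodes the mitochondrial arginase, which splits arginine into ornithine and urea. The KO-labelled libraries had 9.06, 2.77 and 5.34 FPKM of Arg2, those of Gr_1 had 38.1, 40.4 and 46.0, and those of fl had 0.350, 0.135 and 0.227. No groups overlapped, and KO A was 3.27 times as high as KO B. Between KO and fl, Arg2 rose 24.1-fold in mean FPKM, with a log2 change of 2.33 ± 0.29 (limma adjusted p = 0.00192, higher in 3 of 3 libraries), the 15th highest of the 12289 genes on this scale. The log2 change was 4.005 with a pseudocount of 0.1 and 4.40 with voom on recovered fragments, since a pseudocount of 1 compresses the low fl levels. The ratio rests on 11, 4 and 6 fragments in fl, against 257, 86 and 166 in the KO-labelled libraries, so its size is loose. Leaving out any single library kept the call, with log2 changes of 1.99 to 2.69 and adjusted p up to 0.0127.

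Between Gr_1 and fl, the rise of Arg2 was 175-fold, or 5.10 ± 0.29 on the log2 scale (limma adjusted p = 2.95e-06), the 11th highest of all genes tested. Between KO and Gr_1, Arg2 fell 7.25-fold, with a log2 change of -2.77 ± 0.29 (adjusted p = 0.000107). An exact permutation test (two-sided) gave p = 0.1 in each of these comparisons, the smallest that 3 against 3 libraries allow. Arg2 (ENSMUSG00000021125) lies on the plus strand at chr12:79130777-79156301 (GRCm38), and 285 of its 1428 exon bases overlap exons of Vti1b on the other strand, with 116 bases shared with Gm48780. The strand of counting is not stated, so the parts of the shared reads cannot be told apart. Vti1b, a gene of vesicle fusion, had 27.0 ± 1.19 FPKM in the KO-labelled libraries, 35.8 ± 2.41 in Gr_1 and 27.1 ± 2.03 in fl, a log2 change of -0.00 in KO against fl (adjusted p = 0.981). Gm48780 had 0.644, 3.30 and 0.115 FPKM on average in KO, Gr_1 and fl, the same order as Arg2.

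Arg1, the cytosolic arginase of the liver and of alternatively activated macrophages, had 0.135, 0.145 and 0.103 FPKM in the KO-labelled libraries, 0.112, 0.124 and 0.112 in Gr_1 and 0.102, 0.151 and 0.170 in fl. These levels rest on 4 to 7 fragments per library, and the groups overlapped in all 3 comparisons. Nos2, inducible nitric oxide synthase, was covered by 3, 1 and 3 fragments in KO-labelled libraries, 4, 2 and 1 in Gr_1 and 0, 0 and 0 in fl. No library had more than 4 fragments, and a count of 0 allows up to 3, which is 0.0309 to 0.0368 FPKM in fl, so no fold is given. The libraries of KO and of Gr_1 all lay above those of fl for Nos2, but neither gene was called when no filter was set, with limma adjusted p of 0.408, 0.113 and 0.779 for Nos2 and 0.848, 0.486 and 0.766 for Arg1 in KO against fl, Gr_1 against fl and KO against Gr_1. At this depth only large differences in these genes could have been detected. Arg2 was 66.8, 19.2 and 51.8 times as high as Arg1 in the KO-labelled libraries, 340.5, 327 and 411 times in Gr_1, and 3.43, 0.892 and 1.34 times in fl. Arg1 (ENSMUSG00000019987) lies at chr10:24915221-24927484 on the minus strand and Nos2 at chr11:78920787-78960254 on the plus strand.

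Other genes of arginine transport, the urea cycle, polyamine synthesis and nitric oxide production included several that fell, with Ass1 and Sat1 among them. Of 23 tested genes on this list (31 listed), 0 rose and 6 fell in KO against fl, beside 4.48% and 6.52% of all genes tested. Only 4 fell when a KO or fl library or Gr_1 A was left out, or with only the 6 libraries compared, and Gch1 and Nosip, named for this after their values were seen, lost their calls in 7 and 8 of the 9 fits. The median log2 change was -0.07, which turned to 0.01 when libraries were rescaled without the 10 most abundant genes. Ass1, argininosuccinate synthase, which rebuilds arginine from citrulline, fell to 4.93 ± 0.206 FPKM in the KO-labelled libraries, against 8.16 ± 0.121 in fl (adjusted p = 0.00092). Sat1, the polyamine acetyltransferase, fell to 125 ± 1.90 FPKM there (log2 change -0.68, adjusted p = 0.000616). In Gr_1 against fl 4 rose and 12 fell, beside 30.0% and 31.4% of all genes, and Ass1 at 2.87 ± 0.183 FPKM and Spr, a reductase of tetrahydrobiopterin synthesis, at 1.35 ± 0.326 in Gr_1, against 4.85 ± 0.2999 in fl, were among the falls. Smox, spermine oxidase, rose to 22.3 ± 2.32 FPKM in Gr_1, against 6.23 ± 0.346 in fl (adjusted p = 0.000233), and Azin1, the antizyme inhibitor that raises polyamine synthesis, rose to 29.8 ± 0.894, against 18.8 ± 2.03 in fl. In KO against Gr_1 9 rose and 5 fell, beside 26.7% and 28.9% of all genes, with Ass1 and the decarboxylase gene Amd1 among the rises (log2 changes of 0.62 and 0.76) and Smox and Ddah2 among the falls (-1.61 and -0.88). The same shares of all genes stand beside the counts of each list that follows.

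Transcripts of both enzymes that make extracellular adenosine were higher in the KO-labelled libraries and in Gr_1 than in fl. Nt5e encodes CD73, which turns AMP into adenosine. Its levels were 1.67, 0.578 and 1.10 FPKM in the KO-labelled libraries, 7.35, 8.57 and 7.24 in Gr_1 and 0.0423, 0.0224 and 0.0377 in fl. The 3 groups did not overlap, and KO A was again the highest and KO B the lowest of the KO-labelled libraries. In KO against fl the mean ratio was 32.7, with a log2 change of 0.9995 ± 0.17 (limma adjusted p = 0.00743), on 286, 108 and 205 fragments, against 8, 4 and 6 in fl. Comparing Gr_1 with fl, the mean ratio was 226, with a log2 change of 3.07 ± 0.17 (adjusted p = 2.8e-06). Since log2(FPKM + 1) compresses low levels, these log2 changes understate the change of Nt5e. Comparing KO with Gr_1, Nt5e fell, with a log2 change of -2.07 ± 0.17 (adjusted p = 4.48e-05). Nt5e (ENSMUSG00000032420) lies at chr9:88327197-88372092 on the plus strand.

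Entpd1 encodes CD39, which turns ATP and ADP into AMP and so feeds CD73. It had 13.9, 8.47 and 10.8 FPKM in the KO-labelled libraries, 26.6, 26.3 and 26.7 in Gr_1 and 7.58, 7.07 and 7.41 in fl. The KO-labelled libraries lay above all fl libraries, and KO B was close to them. For KO against fl, Entpd1 rose 1.501-fold, with a log2 change of 0.50 ± 0.14 (limma adjusted p = 0.0495). The call was lost without any single library other than KO B, with adjusted p up to 0.136, which was reached without KO C, and without KO B adjusted p was 0.00587. In Gr_1 against fl Entpd1 rose 3.61-fold (log2 change 1.72 ± 0.14, adjusted p = 1.35e-05), and in KO against Gr_1 it fell, with a log2 change of -1.22 ± 0.14 (adjusted p = 0.000151). Entpd1 stood 8.29, 14.7 and 9.83 times as high as Nt5e in the KO-labelled libraries and 3.62, 3.07 and 3.69 times in Gr_1, against 179, 316 and 197 times in fl. Entpd1 (ENSMUSG00000048120) lies at chr19:40612366-40741602 on the plus strand.

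Around these 2 enzymes, purine receptors and nucleotide enzymes moved in both directions. Of 24 tested genes (32 listed), 4 rose and 4 fell in KO against fl. The 4 rises became 0 with KO C left out, 1 with fl B left out and 2 with Gr_1 B, fl A or fl C left out, and 3 to 4 falls were called in these fits. With only the 6 libraries of these groups 1 rose and 4 fell. The median log2 change was -0.02, but 0.01 without fl A and 0.04 when libraries were rescaled without the 10 most abundant genes. P2ry6, a receptor for UDP, had 2.96 ± 0.562 FPKM in the KO-labelled libraries, against 8.61 ± 0.556 in fl (log2 change -1.29, adjusted p = 0.00092). P2rx7, the ATP-gated channel that starts inflammasome signalling, had 2.34 ± 0.261 FPKM there, against 5.35 ± 0.232 in fl (adjusted p = 0.00213). P2ry2 and P2ry13, receptors for ATP and ADP, rose by log2 changes of 0.46 and 1.004 (adjusted p = 0.011 and 0.0207). Neither was called without KO C, with adjusted p of at most 0.0857 in the fits that left out a library, and P2ry13 was also lost without fl B or fl C.

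For Gr_1 against fl, 6 purine genes rose and 11 fell. Adora2b, the low-affinity adenosine receptor, had 0.616 ± 0.280 FPKM in Gr_1, against 4.91 ± 0.734 in fl (log2 change -1.88, adjusted p = 1.2e-05), and P2rx7 fell by 1.62 on the log2 scale. P2ry13 rose to 13.1 ± 1.49 FPKM in Gr_1, against 0.904 ± 0.224 in fl. Ampd3, an AMP deaminase, rose to 35.1 ± 1.36, against 15.1 ± 0.575 in fl (adjusted p = 3.35e-05). In KO against Gr_1 11 rose and 5 fell, with 8 rises without KO C. Adora2b had 3.03 ± 0.412 FPKM in the KO-labelled libraries (log2 change 1.33, adjusted p = 0.000135) and the channel gene P2rx1 31.9 ± 3.27, against 20.2 ± 0.549 in Gr_1. Ampd3 and Dpp4, the CD26 peptidase that binds adenosine deaminase, fell (log2 changes of -1.04 and -1.053).

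The Ptgs2 and Ptges transcripts, for enzymes of prostaglandin E2 synthesis, differed most clearly in Gr_1, where both rose. Ptgs2 encodes cyclooxygenase 2, the inducible enzyme that makes prostaglandin H2. Its levels were 19.3, 7.62 and 12.5 FPKM in the KO-labelled libraries, 47.5, 54.3 and 53.7 in Gr_1 and 6.70, 7.45 and 4.25 in fl. Gr_1 stood far above both other groups, and KO B lay just above the highest fl library. In Gr_1 against fl Ptgs2 rose 8.45-fold, or 2.92 ± 0.29 on the log2 scale (limma adjusted p = 4.14e-05), and in KO against Gr_1 it fell, with a log2 change of -1.99 ± 0.29 (adjusted p = 0.000514). In KO against fl the mean ratio was 2.14 and the log2 change 0.93 ± 0.29, with an adjusted p of 0.0745, so it was not called. It was called without KO B (log2 change 1.25, adjusted p = 0.0138) and with voom on recovered fragments (adjusted p = 0.0413), and other fits gave adjusted p of 0.0585 to 0.185. Ptgs2 (ENSMUSG00000032487) lies at chr1:150100031-150108227 on the plus strand.

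Ptges encodes microsomal prostaglandin E synthase 1, which acts on the product of cyclooxygenase 2. It had 3.85, 2.48 and 2.50 FPKM in the KO-labelled libraries, 5.52, 5.59 and 5.73 in Gr_1 and 2.43, 2.33 and 2.04 in fl. KO A stood apart from KO B and KO C, which lay next to the fl libraries. Between Gr_1 and fl, it rose by 1.02 ± 0.13 on the log2 scale (limma adjusted p = 0.000157), and in KO against Gr_1 it fell (log2 change -0.76 ± 0.13, adjusted p = 0.00108). Between KO and fl, the log2 change of 0.26 was not called (adjusted p = 0.238), with a 95% interval of -0.03 to 0.55. Ptgs2 was 5.01, 3.07 and 4.997 times as high as Ptges in the KO-labelled libraries and 8.61, 9.71 and 9.36 times in Gr_1, against 2.76, 3.20 and 2.09 times in fl. Ptges (ENSMUSG00000050737) lies at chr2:30889471-30929863 on the minus strand.

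Promoter sequences from RefSeq (build GRCm38.p6, 250 bases before to 50 after a start site) were matched for 6 of the 9 genes in 7 windows, namely Ptgs2, Ptges, Tgfb1, Nt5e, Cd274 and 2 starts of Entpd1. The windows were searched on both strands for TTCNNNGAA (STAT), TTGCNNAA (C/EBP), TGANTCA (AP-1), ACGTG (hypoxia-inducible factor) and a 10-letter NF-kappaB motif, which 8.30%, 10.8%, 7.81%, 19.6% and 1.63% of 32851 promoters of the same length hold. The Ptgs2 window held TTGCGCAA at -69 to -62 from the start site and ACGTG on both strands in overlapping matches from 17 to 22 bases past it, and the Cd274 window held 1 ACGTG match from 40 to 44. The other 5 windows held no match. The bases before the start are printed for Ptgs2 and Entpd1, which were higher in Gr_1 than in fl, and for Tgfb1, which was lower. They lie at chr1:150099781-150100030, chr19:40612116-40612365 and chr7:25686752-25687001, all on the plus strand, and capitals mark the C/EBP match.
Ptgs2: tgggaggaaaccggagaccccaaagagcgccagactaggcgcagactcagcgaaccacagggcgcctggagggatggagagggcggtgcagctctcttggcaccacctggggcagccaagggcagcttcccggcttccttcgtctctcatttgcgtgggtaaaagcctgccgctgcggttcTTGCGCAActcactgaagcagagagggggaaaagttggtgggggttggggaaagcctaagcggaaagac
Entpd1: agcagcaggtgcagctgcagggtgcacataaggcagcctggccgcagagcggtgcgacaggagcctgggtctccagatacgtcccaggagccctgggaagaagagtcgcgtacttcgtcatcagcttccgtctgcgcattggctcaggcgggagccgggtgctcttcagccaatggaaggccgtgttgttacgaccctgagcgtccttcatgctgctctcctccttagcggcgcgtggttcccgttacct
Tgfb1: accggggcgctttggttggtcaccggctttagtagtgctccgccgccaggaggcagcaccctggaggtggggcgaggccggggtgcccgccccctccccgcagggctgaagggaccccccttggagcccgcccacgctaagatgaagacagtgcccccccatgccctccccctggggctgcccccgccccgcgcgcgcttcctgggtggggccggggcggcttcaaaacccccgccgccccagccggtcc
A match is a description of the letters, not of a factor bound there.

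Of 19 other tested genes of prostaglandin and leukotriene metabolism (28 listed), 0 rose and 1 fell in KO against fl. The one that fell was Hpgd, which breaks down prostaglandin E2, at 8.76 ± 3.30 FPKM in the KO-labelled libraries, against 21.7 ± 3.66 in fl (log2 change -1.27, adjusted p = 0.0142), and it was not called without fl A (adjusted p = 0.0535). Without KO B 2 genes rose and 1 fell, as with voom or either rescaling. The list's median was 0.01 in that comparison, and -0.01 without fl B and -0.00 without KO C. In Gr_1 against fl 9 rose and 7 fell, with a median of 0.07 that turned to -0.02 when libraries were rescaled without the 10 most abundant genes. Alox5, the enzyme that starts leukotriene synthesis, rose to 169 ± 11.3 FPKM in Gr_1, against 58.9 ± 2.28 in fl (adjusted p = 3.58e-05), and Ptger2, a prostaglandin E2 receptor, to 4.74 ± 0.487, against 1.99 ± 0.225. Ptgr1, a prostaglandin reductase, and Abcc4, which exports prostaglandins, fell by 0.95 and 0.63 on the log2 scale. For KO against Gr_1, 6 rose and 8 fell, with a median of -0.09 that turned to 0.07 under the same rescaling. Abcc4 and Ptgr1 rose (log2 changes of 0.63 and 0.91), and Alox5 and its partner Alox5ap fell (-1.16 and -0.71).

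Cd274, the gene of PD-L1, varied little between groups. It had 3.96, 4.66 and 4.09 FPKM in the KO-labelled libraries, 2.79, 2.48 and 3.79 in Gr_1 and 3.36, 3.35 and 2.48 in fl. The KO-labelled libraries lay above both other groups, which overlapped, and KO B was the highest of all. For 6 of the 7 tested genes KO B was the lowest of the KO-labelled libraries. In KO against Gr_1 Cd274 rose, with a log2 change of 0.39 ± 0.14 (limma adjusted p = 0.0374). The call was lost without KO A, KO B, KO C, Gr_1 A or Gr_1 B, with adjusted p up to 0.129, reached without Gr_1 B. In KO against fl the log2 change of 0.37 ± 0.14 was not called (adjusted p = 0.128). Comparing Gr_1 with fl, it was -0.02 (adjusted p = 0.906), with a 95% interval of -0.33 to 0.29. Among the marker sums that were also highest in KO B of the KO-labelled libraries were those of NK cells, at 14.6, 33.3 and 23.4 FPKM from KO A through KO C, against 2.52 to 4.19 in Gr_1 and 7.18 to 10.5 in fl (5 of 8 markers tested, 5 of them higher in KO than in Gr_1), and of basophils and mast cells, at 407 to 523 FPKM, against 196 to 315 in Gr_1 and 125 to 256 in fl (7 of 8 markers higher in KO than in Gr_1). The eosinophil sum was likewise highest in KO B, at 6768, 11954 and 9271 FPKM in the same libraries, against 2216 to 2728 in Gr_1 and 5965 to 11483 in fl. Most of it was Prg2, at 4133, 8447 and 6176 FPKM from KO A through KO C. Epx, Ear1, Ear2 and Ear6 were also highest in KO B of these 3. Ccr3, at 17.8, 5.36 and 11.3 FPKM, Il5ra, at 6.21, 3.11 and 4.51, and Siglecf were highest in KO A. The stem and progenitor sum was highest in KO B too, at 34.3, 48.0 and 41.7 FPKM, against 14.65 to 19.75 in Gr_1 and 19.88 to 27.85 in fl (6 of 8 markers tested, 6 of them higher in KO than in Gr_1). Their part in the level of Cd274 was not tested. Cd274 (ENSMUSG00000016496) lies at chr19:29367455-29388095 on the plus strand, and 511 of its 3622 exon bases overlap a gene on the other strand, AC119228.1.

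Of 18 other checkpoint ligands and receptors tested (31 listed), 1 rose and 4 fell in KO against fl, with a median log2 change of -0.13. Without KO C 0 rose and 1 fell, without any single fl library 0 rose and 2 fell, leaving out KO A gave 0 and 5, and leaving out KO B gave 2 and 3. Cd86, a costimulatory ligand, fell to 1.77 ± 0.258 FPKM in the KO-labelled libraries, against 3.497 ± 0.609 in fl (adjusted p = 0.00857), and kept its call without any single library. Lgals3, the galectin 3 gene, fell to 155 ± 35.6 FPKM, against 257 ± 9.47 in fl (adjusted p = 0.0127), but not without KO C (adjusted p = 0.053). Cd200r1, an inhibitory receptor of myeloid cells, rose by 0.35 on the log2 scale (adjusted p = 0.0231), a call lost without KO A, KO C or any single fl library.

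For Gr_1 against fl, 9 checkpoint genes rose and 6 fell. Pilra, an inhibitory receptor of myeloid cells, rose to 90.03 ± 4.74 FPKM in Gr_1, against 19.3 ± 0.896 in fl (log2 change 2.16, adjusted p = 5.11e-06), and Cd200r1 to 7.09 ± 0.649, against 3.53 ± 0.122. Havcr2, the gene of TIM-3, and Btla fell by 0.93 and 1.22 on the log2 scale. Between KO and Gr_1, 4 rose and 11 fell, with 2 rises without KO C or without Gr_1 A. Pilra at 28.0 ± 6.26 FPKM and Pirb, another inhibitory receptor, at 43.3 ± 12.3 in the KO-labelled libraries, against 124 ± 2.99 in Gr_1, were among the falls, and the nectin-like ligand gene Pvr and Btla among the rises (log2 changes of 0.39 and 0.70).

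Tgfb1 was the 1 gene of the 9 called lower in both comparisons with fl. It encodes transforming growth factor beta 1. Its levels were 54.3, 48.9 and 53.0 FPKM in the KO-labelled libraries, 42.8, 42.0 and 41.6 in Gr_1 and 63.0, 64.4 and 84.4 in fl. The groups did not overlap, and fl C stood above the other fl libraries. Between Gr_1 and fl, Tgfb1 fell, at -0.72 ± 0.11 on the log2 scale (limma adjusted p = 0.000429), and leaving out any single library kept the call. For KO against fl, it fell, with a log2 change of -0.42 ± 0.11 (adjusted p = 0.0388). That call was lost without any single library other than fl A and fl C, with adjusted p up to 0.111, reached without KO C. In KO against Gr_1 it rose, with a log2 change of 0.30 ± 0.11 (adjusted p = 0.0406), a call lost without KO A, KO C or any single Gr_1 library (adjusted p up to 0.105). The change in KO against Gr_1 was 0.48 (adjusted p = 0.00114) when libraries were rescaled without the 10 most abundant genes. Monocyte markers had the same order of groups, with a sum over 9 markers of 726 to 761 FPKM in the KO-labelled libraries, 442 to 493 in Gr_1 and 1121 to 1273 in fl, and 8 of 9 markers lower in KO against fl and 9 of 9 in Gr_1 against fl. Dendritic cell markers had that order in their sum too, with sums over 8 markers of 47.4 to 54.6 FPKM in the KO-labelled libraries, 25.5 to 33.2 in Gr_1 and 64.4 to 72.8 in fl. Most of that sum was Bst2, at 33.1 to 41.2, 21.3 to 28.3 and 44.8 to 50.4 FPKM in these groups. Of the 8 dendritic cell markers 5 were tested, with 1 called higher and 2 lower in KO against fl, and 0 higher and 4 lower in Gr_1 against fl. Of all genes tested, 30.3% had mean levels in this order, highest in fl and lowest in Gr_1. The part of the cells of either list in the level of Tgfb1 was not tested. Tgfb1 (ENSMUSG00000002603) lies at chr7:25687002-25705077 on the plus strand.

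Nrros, a protein that anchors latent transforming growth factor beta on myeloid cells, followed the order of Tgfb1. It had 51.6 ± 1.63 FPKM in the KO-labelled libraries, 42.9 ± 1.10 in Gr_1 and 71.1 ± 3.70 in fl, with adjusted p of 0.00257 in KO against fl and 1.84e-05 in Gr_1 against fl. Of 18 tested genes of TGF-beta activation and signalling (30 listed), 0 rose and 2 fell in KO against fl, the other being Tgfbi, a secreted matrix protein induced by the cytokine, at 86.7 ± 14.4 FPKM in the KO-labelled libraries, against 152 ± 4.73 in fl. Without fl C 2 rose and 2 fell, as they did when libraries were rescaled without the 10 most abundant genes, and that rescaling turned the median from -0.04 to 0.03, as leaving out KO B did to 0.01. Comparing Gr_1 with fl, 13 rose and 3 fell, with the receptor gene Tgfbr2 at 13.1 ± 0.335 FPKM in Gr_1, against 7.83 ± 0.378 in fl, and the signalling gene Smad3 at 15.4 ± 0.534, against 8.01 ± 1.09. The falls included Nrros and Bambi, a decoy receptor (log2 changes of -0.72 and -0.45). Comparing KO with Gr_1, 1 rose, Nrros, and 13 fell, among them Tgfbr2 and Smad3 (log2 changes of -0.74 and -0.73), and without Gr_1 C 2 rose. So the ligand and its anchor were lower in Gr_1 than in fl where the receptor and Smad3 were higher.

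Further effectors named for suppressor cells, among them inflammatory cytokines, reactive oxygen enzymes and amino acid transporters, rose in 3 and fell in 1 of 16 tested genes (21 listed) in KO against fl. The rises were Mmp9, a matrix metalloproteinase that is also on the late neutrophil list, at 215 ± 81.9 FPKM in the KO-labelled libraries, against 13.4 ± 2.05 in fl (adjusted p = 0.000216), Il1b, the gene of interleukin 1 beta, at 109.5 ± 70.3, against 10.5 ± 0.837 (adjusted p = 0.00339), and the cystine transporter gene Slc7a11 (log2 change 0.57, adjusted p = 0.0191), whose call was lost without fl A, fl B or KO C, at an adjusted p of at most 0.0624, and under at least 1 rescaling. Hmox1, heme oxygenase 1, fell by 0.68 on the log2 scale (adjusted p = 0.0489), a call lost without any single library other than KO A and under both rescalings. For Gr_1 against fl, 12 rose and 1 fell, with Mmp9 at 1621 ± 133 FPKM and Slc7a11 at 3.59 ± 0.459 in Gr_1, against 0.464 ± 0.0450 in fl, among the rises and the chemokine gene Ccl5 as the fall. For KO against Gr_1, 2 rose, Ccl5 and the lectin-like receptor gene Olr1 (log2 changes of 2.62 and 0.46), and 13 fell, among them Mmp9 and Il4ra, an interleukin 4 receptor subunit (-2.98 and -0.80).

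**Figure D3:**
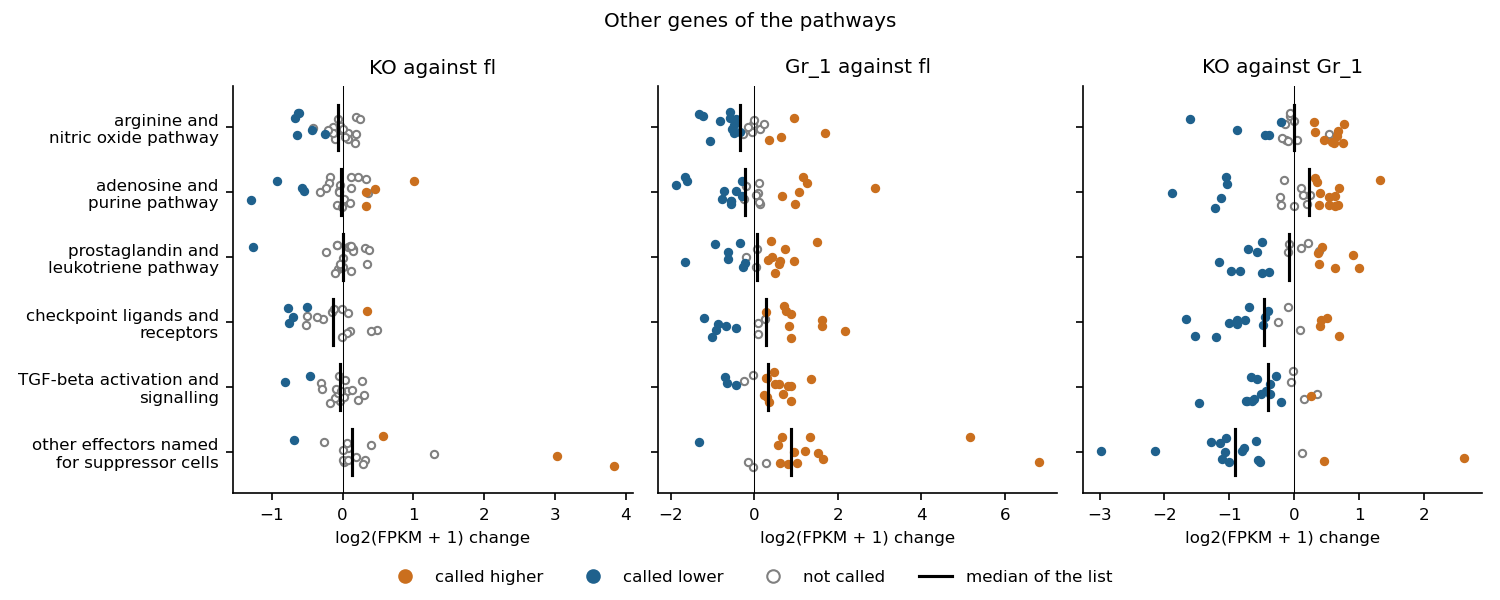
Change in log2(FPKM + 1) (horizontal axes, scaled separately in each panel) of each tested gene on the 6 lists around the 9 effectors, which are not themselves plotted. Orange points were called higher, blue points lower and open points were not called (limma adjusted p under 0.05), and black bars are list medians. Between Gr_1 and fl, 13 of 18 TGF-beta genes and 12 of 16 other effectors are called higher, beside 30.0% of all genes tested, and the point farthest to the right is Mmp9.

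Transcripts of mature neutrophils differed between the groups in the same order as 5 of the 9 genes, lowest in fl and highest in Gr_1. Of all genes tested, 26.6% had mean levels in this order. Erythroid and platelet markers had that order in their sum too, with sums over 12 markers of 129 to 132 FPKM in the KO-labelled libraries, 148 to 231 in Gr_1 and 57.8 to 83.4 in fl, 4 of them called higher in KO against fl and 9 higher and 1 lower in Gr_1 against fl. In KO against Gr_1, 2 of these markers were called higher and 2 lower. Hba-a1 alone ran from 32.7 to 106 FPKM over the Gr_1 libraries. Gata1 went the other way, at 7.49 to 8.98 FPKM in the KO-labelled libraries and 3.19 to 3.81 in Gr_1. A sum over 10 late neutrophil markers (Ly6g, Cxcr2, Mmp8, Mmp9, Retnlg, Stfa2l1, Csf3r, Il1r2, Fpr1 and Trem1) was 3065, 1349 and 2195 FPKM in the KO-labelled libraries, 9825 to 10822 in Gr_1 and 578 to 603 in fl. All 10 markers were called higher in KO against fl and in Gr_1 against fl, and all 10 lower in KO against Gr_1. In bulk RNA, more cells of a type and more RNA per cell cannot be told apart. Per 1000 FPKM of these markers, Arg2 was 2.05 to 2.96 FPKM in the KO-labelled libraries and 3.78 to 4.26 in Gr_1, against 0.233 to 0.581 in fl. Nt5e was 0.428 to 0.546 in the KO-labelled libraries and 0.669 to 0.802 in Gr_1, against 0.0388 to 0.0701 in fl. Entpd1 went the other way, with 4.53 to 6.28 in the KO-labelled libraries and 2.46 to 2.71 in Gr_1, against 12.2 to 12.6 in fl. Ptgs2 was 5.65 to 6.30 in the KO-labelled libraries and 4.84 to 5.08 in Gr_1, against 7.12 to 12.9 in fl. Ptges was 1.14 to 1.84 in the KO-labelled libraries and 0.523 to 0.562 in Gr_1, against 3.41 to 4.03 in fl. Retnlg was the largest part of the late neutrophil sum, at 803 to 1912 FPKM in the KO-labelled libraries, 4860 to 6085 in Gr_1 and 382 to 410 in fl. Between fl and Gr_1, Fpr1 differed more, at 0.613 to 1.41 and 151 to 154 FPKM. Csf3r differed less, at 97.9 to 98.8 and 527 to 583. These ratios are descriptions that depend on the markers summed, and the part of either marker list's cells in the level of the 5 genes was not tested.

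**Figure D4:**
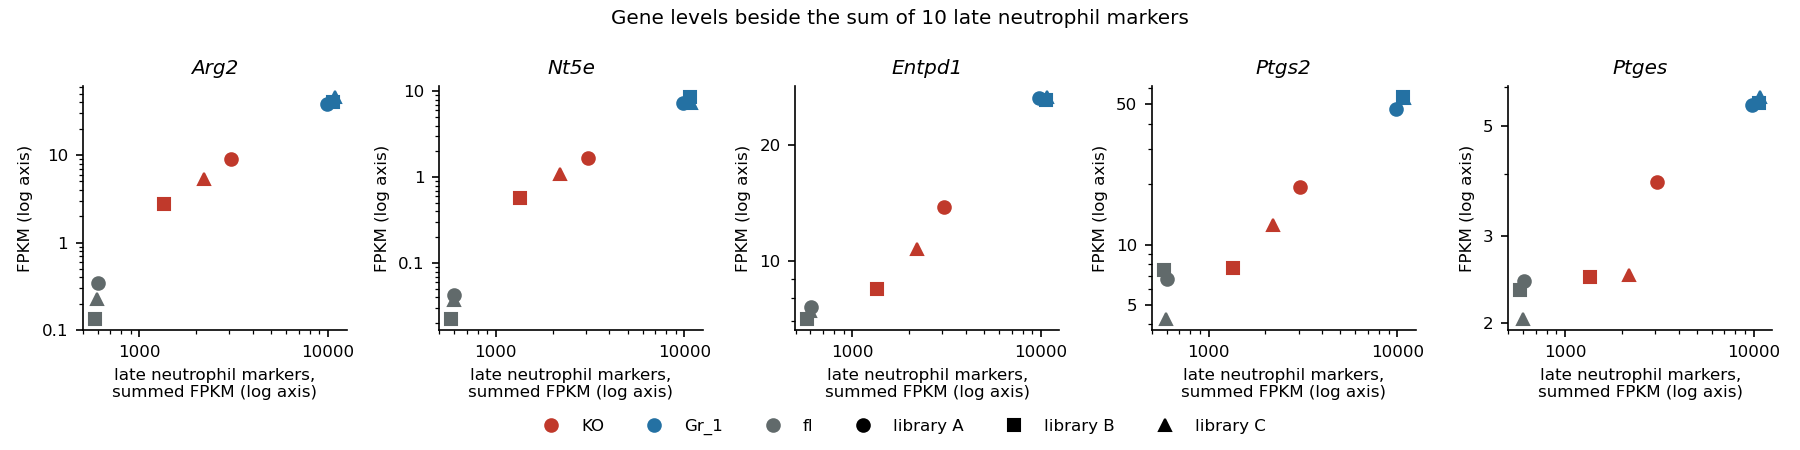
Level of Arg2, Nt5e, Entpd1, Ptgs2 and Ptges in FPKM (vertical log axes) against the summed FPKM of 10 late neutrophil markers (horizontal log axes) in each of the 9 libraries. Colours are groups and symbols are library letters. Marker sums run from 1349 to 3065 in the KO-labelled libraries, from 9825 to 10822 in Gr_1 and from 578 to 603 in fl, and Arg2 and Nt5e span a wider range of levels than Entpd1 or Ptges.

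The KO-labelled libraries also differed among themselves. KO A was the highest and KO B the lowest of them in 6 of the 7 tested genes, all but Cd274, beside 33.7% of all genes tested, and KO C lay between in 7 of 7, beside 61.5%. Tgfb1 was among these 6, at 54.3 FPKM in KO A and 48.9 in KO B, although its group means were lowest in Gr_1 and highest in fl. KO A exceeded KO B by 3.27-fold in Arg2, 2.898-fold in Nt5e and 2.53-fold in Ptgs2, where the highest and lowest Gr_1 libraries differed by 1.21-, 1.18- and 1.14-fold. The highest and lowest fl libraries differed by 2.595-, 1.887- and 1.752-fold, for Arg2 and Nt5e on 4 to 11 fragments. The late neutrophil sum was also highest in KO A and lowest in KO B. These libraries differ in Xist and Y-linked transcripts as well, and the part of sex in their differences was not tested. Without KO C, the log2 change in KO against fl was 2.32 for Arg2 and 0.99 for Nt5e, both still called (adjusted p = 0.0127 and 0.0357).

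The genes whose levels ran most like each effector over the 9 libraries were found by Pearson's r of log2(FPKM + 1), given without a p because the 9 points fall into 3 groups and share their libraries. For Arg2 these were Clec4d, a C-type lectin receptor (r = 0.9997), and Retnlg, a late neutrophil marker (0.9988). For Nt5e they were Cd101, a surface glycoprotein of mature mouse neutrophils (0.9993), and the sialyltransferase gene St3gal6 (0.9992). Clec4d had 31.8, 11.5 and 21.8 FPKM in the KO-labelled libraries, 119 to 139 in Gr_1 and 3.10 to 3.84 in fl, so its KO libraries were in the order of those of Arg2. Entpd1 ran with Lcn2, a siderophore-binding protein of neutrophil granules (0.999), and Gm17455 (0.9986). Lcn2 is 1 of 9 genes on the early granulocyte list, of which 3 were called higher and 5 lower in Gr_1 against fl. Ptgs2 ran with 4930581F22Rik and Ogt, the enzyme that adds O-linked N-acetylglucosamine to proteins (0.9975 and 0.9973), and Ptges with CAAA01087686.1 and Gm38843 (0.9928 and 0.9903). Tgfb1 ran with Trappc5 and Tmem14c (0.9927 and 0.992), and Cd274 with Epm2aip1 and the kinase gene Tec (0.966 and 0.957), the lowest likeness of the 7.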

How the data were processed

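Total RNA of mouse myeloid cells was sequenced as paired ends on an Illumina NovaSeq, per the labels' protocols. The submitters' processing notes list DESeq2 1.16.1 and featureCounts 1.5.0-p3 as tools and GRCm38 and mm10 as builds, without saying what each did, and for the aligner the sources used here give nothing. The authors deposited FPKM, 1 column per library, and library scaling in these values matched size factors by median of ratios (log2 difference at most 0.000279). FPKM times the exon length in GENCODE M21 gave back the fragments behind each value, and 97.2% to 97.5% of values under 1000 fragments were whole within 0.02. Floors of 3 fragments allow for counting error alone.

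The 12289 genes that reached 1 FPKM in 3 or more libraries entered 1 fit of all 9 libraries on log2(FPKM + 1) by limma 3.58.1 under R 4.3.3, trend included, leaving 6 residual degrees of freedom, two-sided, adjusted by Benjamini-Hochberg over all genes, and the procedure was tested on simulated data. Fold values are ratios of mean FPKM. Errors beside levels are SD over 3 libraries and errors beside log2 changes are standard errors. Exact permutation tests, figures and motif searches used Python 3.11.15, scipy 1.17.1 and matplotlib 3.10.9. All 9 genes were named whatever their values. From each of 6 pathway lists up to 2 called genes per direction with the smallest adjusted p were named in each comparison, and for each tested gene the 2 most like it. The 9 genes and the lists were chosen with earlier results of these data known. Coordinates are from GENCODE M21 on GRCm38. Alternatives were other pseudocounts, filters, scalings, voom, a block on library letters and leaving out each library.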

Additional observations from a re-analysis of the deposited data

How the results depend on the processing

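Of the 21 pairs of a tested gene and a comparison, 15 kept their direction and side of the threshold under every alternative run (18, or 17 for Cd274, which a filter at 5 FPKM removes), and 6 did not. Arg2 and Nt5e kept their calls in all 3 comparisons, and Ptgs2, Ptges and Entpd1 kept theirs in Gr_1 against fl and KO against Gr_1. In KO against fl Entpd1 lost its call in 11 and Tgfb1 in 10 of 18 alternatives, and Ptgs2 gained one in 2. Between KO and Gr_1, Cd274 lost its call in 7 of 17 alternatives and Tgfb1 in 6 of 18. Cd274 in Gr_1 against fl, at -0.02 with all libraries, ran from -0.15 to 0.0765 when 1 library was left out and changed sign without Gr_1 A (0.01), Gr_1 B (0.0765), fl A (0.03) or fl B (0.03), and was called in none of these. For these changes beyond fewer samples the cause was not tested.

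Members called in KO against fl numbered 4, but 2 with no filter on low values, 2 with only the 6 libraries of the groups compared, and 2 to 4 when 1 library was left out (2 without KO A, KO C, Gr_1 A, Gr_1 B, Gr_1 C or fl B). Over all genes, that comparison called 1352, but 794 with only those 6 libraries and 573 to 1261 when 1 library was left out (818 with fl A left out, 730 with fl B left out and 573 with KO C left out). Leaving out 1 library gave 6445 to 7601 in Gr_1 against fl, where all libraries gave 7550, and 5577 to 7554 in KO against Gr_1, where all gave 6843.

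The letters A, B and C did not pair libraries. Same-letter correlations of deviations from group means ran from -0.0618 to 0.14, with 1 of 9 over 0.1, and 4 of 9 libraries correlated best with their own letter. A replicate block on the letters gave 1037, 7280 and 6469 called genes in the 3 comparisons and 2 members called in KO against fl, with Entpd1 at an adjusted p of 0.0532 and Tgfb1 at 0.0571, and it ended the call of Cd274 in KO against Gr_1 (0.0715).

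The 10 most abundant genes held 24.3% to 39.4% of all FPKM. Rescaling without them moved the median of all genes in KO against Gr_1 from 0.01 to 0.16 and in Gr_1 against fl from -0.03 to -0.11, and gave 812 higher and 577 lower in KO against fl, where the deposited scaling gave 551 and 801. Comparing KO with Gr_1, it gave 4800 and 2560, where the deposited scaling gave 3287 and 3556. All called members kept their direction. Depth limits Arg1 and Nos2 in every group and Arg2 and Nt5e in fl, where levels rest on 4 to 11 fragments.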

Other observations

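Summed over the 9 genes, the KO-labelled libraries held 106, 75.7 and 89.4 FPKM, those of Gr_1 171 to 185 and those of fl 83.6 to 101. Tgfb1 made up 51.1%, 64.7% and 59.2% of that sum in the KO-labelled libraries and 22.5% to 25.1% in Gr_1, against 75.4% to 83.5% in fl, so the sum in fl was mostly 1 cytokine transcript and in Gr_1 it was spread over Ptgs2, Tgfb1, Arg2 and Entpd1. B and plasma cell markers were high in the same group as Ptgs2 and Arg2, with a sum over 10 markers of 71.2 to 101 FPKM in the KO-labelled libraries, 343 to 385 in Gr_1 and 81.5 to 104 in fl, and 10 of 10 markers higher in Gr_1 against fl. T cell markers had sums of 10.6 to 13.1 FPKM in the KO-labelled libraries, 8.34 to 11.1 in Gr_1 and 2.81 to 4.13 in fl over 11 markers, of which 3 passed the filter. All 3 were called higher in KO against fl and 2 in Gr_1 against fl. In Gr_1 most of the T cell sum was Cd3d, at 3.41 to 4.71 FPKM, and Lck, at 3.16 to 4.49. Cd5 was also higher there, at 0.332 to 0.513 FPKM, against 0.163 to 0.220 in fl. Cd3e and Cd8a reached only 0.0540 and 0.0606 FPKM in Gr_1, against up to 0.0795 for each in fl. The part of the cells of either list in the levels of the 9 genes was not tested.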
